A study of Homo sapiens with 6 samples.

Results

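The genes described here are the protein-coding zinc finger genes of human chromosome 19 whose symbol is ZNF followed by a number, with a letter after it in some cases. The rule that defines them uses symbol and chromosome, from the GENCODE annotation of GRCh38. There were 246 such genes among the 21447 genes with a value in the deposited files, and 213 of them had enough counts to be tested. The data were bulk RNA-seq of U-2 OS, an established human osteosarcoma cell line, with 3 untreated libraries and 3 libraries made 24 h after a dose of 4 Gy of ionizing radiation (IR). The comparison asks how the transcriptome of these cells differed a day after the DNA breaks that IR makes. All 6 libraries came from this cell line, and the labels name no further drug or genotype.

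C2H2 zinc finger proteins carry arrays of small DNA-binding modules, each folded around a zinc ion and each reading a few bases of DNA. The human genes arose largely by tandem duplication, and chromosome 19 holds the main clusters. Most of the proteins encoded there also carry a KRAB domain, which recruits the corepressor TRIM28 (KAP1) and, through it, the histone methyltransferase SETDB1 and heterochromatin protein 1, and many of them silence transposable elements. TRIM28 is itself phosphorylated by the kinase ATM after DNA breaks, as background that RNA levels do not show.

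The finger array and its base composition are seen best in the coding sequence. A search of the reading frame of the canonical transcript found from 1 to 36 fingers per member, with a median of 12, and a KRAB pattern in 207 members and none in 39. One finger of 84 bases, with the stretch that leads to the next, is printed for 2 members that were higher after IR and lack the KRAB pattern, ZNF787 and ZNF358, and for 3 others that changed, ZNF114, ZNF66 and ZNF507. Capitals mark G and C.
ZNF114: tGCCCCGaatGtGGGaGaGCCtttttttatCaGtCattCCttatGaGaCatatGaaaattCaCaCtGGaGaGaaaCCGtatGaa
ZNF66: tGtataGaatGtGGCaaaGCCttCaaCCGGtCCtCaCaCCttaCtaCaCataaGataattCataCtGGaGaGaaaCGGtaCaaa
ZNF507: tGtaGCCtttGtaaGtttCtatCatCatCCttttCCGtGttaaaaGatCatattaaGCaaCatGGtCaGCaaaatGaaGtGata
ZNF787: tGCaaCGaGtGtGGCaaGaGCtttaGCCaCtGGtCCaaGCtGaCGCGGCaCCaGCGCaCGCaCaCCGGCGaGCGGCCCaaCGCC
ZNF358: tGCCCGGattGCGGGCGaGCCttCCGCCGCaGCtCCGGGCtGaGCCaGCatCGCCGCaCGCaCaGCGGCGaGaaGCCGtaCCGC
These stretches lie in exons of GRCh38 at chr19:48286540-48286623 (plus strand), chr19:20806207-20806290 (plus), chr19:32353209-32353292 (plus), chr19:56088887-56088970 (minus) and chr19:7519699-7519782 (plus), in that order. ZNF114 and ZNF66 held 34 G or C in their 84 bases and ZNF507 held 28, against 56 in ZNF787 and 62 in ZNF358. The GC content of the whole transcripts, weighted by their level, spanned the same contrast, with 39.8% for ZNF507 and 70.2% for ZNF787 and a median of 44% over the 213 members tested, against 48.6% over all genes tested. Members with 60% GC or more numbered 18, and all 18 lacked the KRAB pattern.

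The depth of the libraries was between 18573309 and 22953834 estimated counts in 5 of them and 45308792 in IR replicate 3, so that the values of this library have the smallest counting error. CDKN1A (p21), the p53 target that halts the cell cycle, had 122, 124 and 120 CPM (counts scaled to the library total) in untreated cells and 322, 341 and 390 CPM after IR, as a check of the treatment. Of the markers set for this line, VIM, SPARC, FN1, CDH2, THY1 and S100A6 were abundant in all libraries, TWIST1 and COL1A2 were under 1 TPM, and CDKN2A, which U-2 OS cells do not express, was at 0 throughout. Of 12 markers of other cell types, 4 or 5 were at 0 in each library and their summed level was 18 to 21.4 TPM (a level scaled for transcript length), most of it EPCAM. In bulk RNA, fewer cells that express a gene and less of its RNA per cell cannot be told apart. By the chi-square of counts per gene between libraries of a group, IR replicate 3 stood apart, at 29.1 and 32.2 against the other irradiated libraries, where all other pairs lay between 3.45 and 9.16. Counts of calls without it are given below. The methods call the samples of each group independent, and the sources used here do not say whether they were separate cultures, so that p-values measure the spread between these libraries.

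Chromosome 19 ZNF genes were expressed at low levels in these cells, whether irradiated or not. On the TPM scale, which accounts for transcript length, the median over the 213 tested members was 4.73, against 15.3 over all genes tested, and 37 members exceeded 10 TPM. The highest was ZNF146, which encodes a protein made of little but zinc fingers, with a mean of 74.7 TPM over the 6 libraries. It was followed by ZNF358 with 39.3, ZNF226 with 28.7, ZNF544 with 28.3 and ZNF302 with 27.3 TPM. All members together took 0.257%, 0.265% and 0.273% of the scaled counts in untreated replicates 1 to 3, and 0.255%, 0.249% and 0.246% after IR. Their summed level was thus 2570, 2654 and 2730 CPM in untreated cells and 2550, 2490 and 2458 CPM after IR, and the groups did not overlap.

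The remaining 33 members had too few counts for a test, between 0 and 63 summed over the 6 libraries. Among them were ZNF93, a repressor of L1 retrotransposons, and ZNF43, ZNF85 and ZNF208, which all lie in the cluster next to the centromere on the short arm. In that cluster, which runs from ZNF101 to ZNF254, 20 of 37 members could be tested. ZNF93 stood between 0 and 0.194 CPM in every library. ZNF560 was at 0 in all 6 libraries, and a count of 0 allows for up to 3 counts in a library. Of the 33, 27 carried the KRAB pattern.

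After IR, few of the 213 members passed the test. By edgeR's quasi-likelihood test with an adjusted p-value under 0.05 over all genes tested, 7 members rose (3.29%) and 16 fell (7.51%), or 10.8% in all. Over all 14323 genes tested, 15.5% rose and 14.5% fell, which is 30.1% called. The shares of the members were below those of the background in both directions, as a description with no test of the difference. The median log2 fold change of the members was -0.11, with 138 members below 0 and 75 above, against 0.01 over all genes. The median absolute log2 fold change was 0.19 for the members against 0.21 for all genes tested. The median standard error (SE) was 0.14 against 0.10 (0.097 before rounding). Since a larger SE also raises absolute fold changes, near-equal medians do not show that members differed between groups as much as other genes. The counts of the members were fewer, with a median of 199 counts per library against 664 over all genes tested. At an unadjusted p-value under 0.05 by the same test, 16 members stood higher and 34 lower. The share of all genes at this threshold is not given, so that these counts cannot be set against a background. Between 5 and 6 members rose when any 1 library was left out. The number that fell was 8 without untreated replicate 1, 7 without untreated replicate 2, 7 without untreated replicate 3, 16 without IR replicate 1, 7 without IR replicate 2 and 12 without IR replicate 3, the deepest library. Leaving out a library changes the test for every gene, and the shares of all genes called in these fits are not given here. These counts thus show only how the calls depend on single libraries. The median of the members was -0.06 without untreated replicate 3 and between -0.13 and -0.09 without any other.

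Genes of like GC content and expression were the closest comparison. For each member, all tested genes without a ZNF symbol were taken whose GC content was within 1 percentage point and whose mean log2 CPM was within 0.5, a median of 94 genes (range 2 to 292, with fewer than 20 for 6 members). On average 21.9% of such genes were called, 11.1% higher and 10.8% lower, against 10.8% of the members. Their median SE was 0.136, close to the 0.14 of the members, and their median absolute log2 fold change was 0.216 against 0.193. The log2 fold change lay above the median of the like genes for 84 members and below it for 129, with a median difference of -0.06. The members thus lay more often below than above genes matched in this way, as a description with no test.

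The sets most like the members, by name or by chromosome, gave other counts. Of 239 tested ZNF genes of other chromosomes, 18 rose and 56 fell (31% called), with a median log2 fold change of -0.13. Their median SE was 0.106. Of 828 other tested protein-coding genes of chromosome 19, 258 rose and 25 fell (34.2%), with a median of 0.21 and a median GC content of 60.1%. None of these differences between sets was tested.

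The log2 fold change followed GC content, among the members as in other genes. Across the 213 members, Pearson's r between log2 fold change and GC content was 0.34 and Spearman's rho 0.41, against 0.44 and 0.50 across 13871 genes without a ZNF symbol, where genes share libraries and are not independent. Of the 56 members under 42% GC, none rose and 5 fell (8.93%), with 50 below 0 and a median of -0.20. Of the 2945 genes without a ZNF symbol in this range, 3.94% rose and 30.3% fell, with a median of -0.17. Of the 18 members of 60% GC or more, 4 rose (22.2%) and none fell, with a median of 0.25. Of the 1887 genes without a ZNF symbol in this range, 44.6% rose and 0.848% fell, with a median of 0.34. At both ends of the GC range the members were thus called less often than other genes of that range, a difference that was not tested. The plot by GC content shows that most members lay near the line of other genes. The members farthest from their like genes were ZNF418 (-2.02), ZNF114 (1.33) and ZNF20 (1.04), which were called, and then ZNF506 (0.98) and ZNF442 (-0.93), which were not. After removal of the GC trend, fitted within each library as a smooth curve, 5 members rose and 10 fell, or 7.04% of members against 24.1% of all genes, and the median of the members was -0.04. The part that GC content, or its effect on sequencing, had in these results was not tested.

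The members with and without the KRAB pattern had different median GC contents, and their calls are given side by side with no test of the difference. Of 180 tested members with the pattern, 3 rose (1.67%) and 15 fell (8.33%), with a median log2 fold change of -0.11 and a median GC content of 43.8%. Of 33 tested members without it, 4 rose (12.1%) and 1 fell (3.03%), with a median of 0.00 (-0.001) and a median GC content of 61.7%. All 4 shares were below the 15.5% that rose and 14.5% that fell over all genes tested. With the GC trend removed, the members with the pattern had 5 rises and 7 falls (6.67% called) and those without it had 0 rises and 3 falls (9.09%), against 24.1% of all genes. The median number of fingers was 13 with the pattern and 10 without it.

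ZNF114, a KRAB zinc finger gene with only 3 fingers found, rose most. It had 7.36, 7.98 and 7.62 CPM in untreated replicates 1 to 3 and 17.9, 21 and 18.9 CPM after IR. Every irradiated library lay far above every untreated one, and the libraries of each group were close together. The log2 fold change was 1.33 ± 0.10 (SE) with an adjusted p-value of 0.000149 by edgeR's quasi-likelihood test, and it was 1.36 with the GC trend removed. It was called in all 15 alternative fits, with log2 fold changes from 1.26 to 1.36. The gene spans chr19:48270081-48287608 on the plus strand of GRCh38, and its like genes in GC content and expression had a median near 0, from which it stood 1.33 higher.

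The estimated transcripts of ZNF114 went in different directions. The canonical transcript (ENST00000595607, 2499 bases) had 3.0, 2.23 and 1.03 CPM in untreated cells and 10.8, 10.2 and 14.2 CPM after IR. A shorter coding transcript (ENST00000315849, 2206 bases) had 3.65, 2.59 and 2.72 CPM in untreated cells and 0, 0.967 and 0.626 CPM after IR. The first was higher and the second lower in every irradiated library. A further coding transcript (ENST00000600687, 1742 bases) had 0.304, 2.67 and 3.73 CPM in untreated cells. After IR it had 6.56, 9.14 and 3.28 CPM, and its groups overlapped. kallisto divides reads among transcripts that share sequence, so that the gene sum is firmer than any single transcript, and transcript use was not tested.

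GC-rich members without a KRAB pattern made up 4 of the 7 that rose, namely ZNF579, ZNF787, ZNF358 and ZNF865, with 62.4%, 70.2%, 66.2% and 70.9% GC. ZNF358 had 48.4, 49.1 and 39.4 CPM in untreated cells and 58.5, 60.7 and 60.9 CPM after IR, a log2 fold change of 0.40 ± 0.09 (SE) with an adjusted p-value of 0.00895 by edgeR's quasi-likelihood test. ZNF787 had 14.7, 15.0 and 13.7 CPM and then 20.2, 17.6 and 24.4 CPM, a change of 0.53 ± 0.12. The groups did not overlap for either gene, and IR replicate 3 was highest in both. ZNF579 had 7.80, 6.96 and 6.60 CPM in untreated cells and 10.5, 9.58 and 11.4 CPM after IR, a change of 0.57 ± 0.13. ZNF865, which encodes 20 fingers, had 16.5, 17.3 and 13.9 CPM and then 20.2, 18 and 21 CPM, a change of 0.31 ± 0.11 that was called with an adjusted p-value of 0.0468 by edgeR's quasi-likelihood test. ZNF865 was called in 1 of the 6 fits that left out a library, the fit without IR replicate 2, and its values in them were 0.23 to 0.38. With the GC trend removed, none of these genes was called, and the log2 fold changes were 0.24 for ZNF579, -0.05 for ZNF787, -0.04 for ZNF358 and -0.28 for ZNF865. Relative to genes of like GC content and expression they stood at 0.18, -0.20, -0.02 and -0.60 in the same order.

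The other members that rose carried the KRAB pattern. ZNF584 had 7.03, 7.89 and 7.87 CPM in untreated cells and 10.5, 10.2 and 9.74 CPM after IR, without overlap, and a log2 fold change of 0.41 ± 0.12 (SE). It was no longer called with the GC trend removed (0.28), and among the 6 fits that left out a library, with 0.36 to 0.44, it was called only without untreated replicate 3 or IR replicate 3. ZNF20 had 1.59, 1.20 and 0.88 CPM and then 2.76, 1.74 and 2.66 CPM, a change of 0.98 ± 0.29 on few reads. Only 44.2% of the 31-base words of ZNF20 (all stretches of this length in its transcripts, the unit by which kallisto commonly matches reads) occur in no other gene, and it shares exons with the readthrough gene ZNF625-ZNF20, so that its counts are uncertain, and it was called in 2 of those 6 fits, without untreated replicate 1 or IR replicate 2.

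ZNF507 had the lowest p-value among the members that fell. It encodes 9 fingers found by the search and no KRAB pattern, and is the only member without this pattern among the 16 that fell. It had 61.1, 61.7 and 62.5 CPM in untreated cells and 45.1, 39.8 and 35.1 CPM after IR. The untreated libraries agreed within a narrow range, and all irradiated libraries lay well below it. The log2 fold change was -0.63 ± 0.09 (SE) with an adjusted p-value of 0.0013 by edgeR's quasi-likelihood test, and -0.49 with the GC trend removed. Most of the loss was assigned to 1 coding transcript (ENST00000544431, 5764 bases), which had 22.8, 23.5 and 19.7 CPM in untreated cells and 5.90, 3.06 and 0 CPM after IR. The canonical transcript (7716 bases) had 33.0, 31.2 and 29.4 CPM and then 33.5, 26.0 and 33.1 CPM, and its groups overlapped.

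ZNF66, ZNF471 and ZNF333 also fell. ZNF66 had 29.9, 31.2 and 28.8 CPM in untreated cells and 23.6, 18.8 and 13.4 CPM after IR, a log2 fold change of -0.71 ± 0.17 (SE). ZNF471, known from tumours in which its promoter is methylated, had 11.5, 13 and 11.5 CPM and then 9.0, 7.19 and 7.26 CPM, a change of -0.63 ± 0.13. ZNF333 had 10.8, 11.0 and 8.80 CPM and then 7.26, 6.42 and 6.38 CPM, a change of -0.61 ± 0.13. In all 3 genes every irradiated library was below every untreated one, and in ZNF66 the irradiated libraries were spread widely, with an SD of 5.10 CPM against 1.20 CPM. Adjusted p-values by edgeR's quasi-likelihood test were 0.0109, 0.00601 and 0.00832, and all 3 falls were still called with the GC trend removed, at -0.62, -0.50 and -0.60. Exons of ZNF333 overlap those of ADGRE2 and ADGRE3 on the other strand. Whether counting used the strand is not given in the sources used here.

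**Figure D1:**
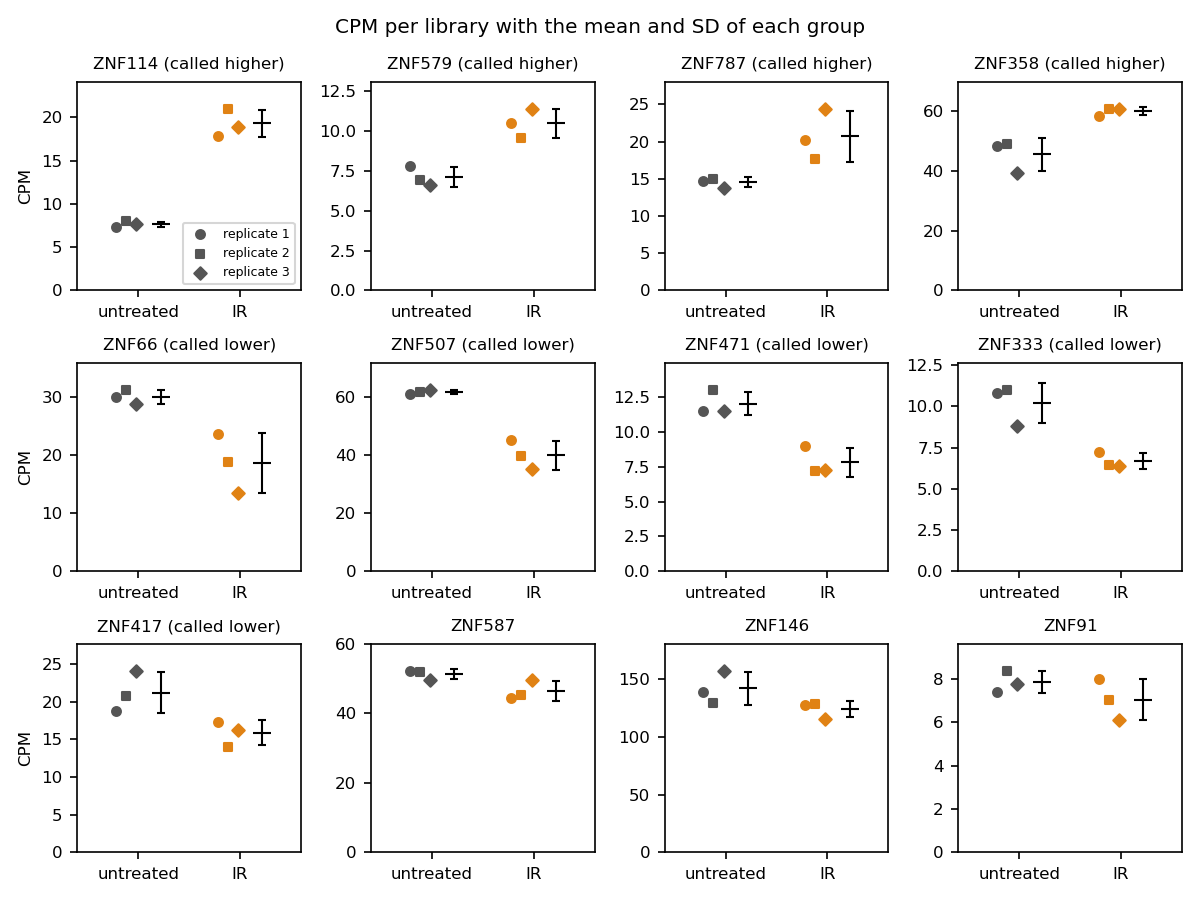
CPM in each library for 12 members, with one marker shape per replicate number, untreated in grey and IR in orange, and the mean with SD (n = 3) beside them. In the 9 panels titled as called the groups do not overlap, and the panels of ZNF587, ZNF146 and ZNF91 show members that were not called.

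Another 11 members fell, most of them by less. ZNF175, which was described as a factor induced in macrophages by HIV, had 14.8, 14.8 and 16.6 CPM in untreated cells and 12.2, 12 and 11.2 CPM after IR, and a log2 fold change of -0.39 ± 0.10 (SE). ZNF525 had 17.6, 16.1 and 16.8 CPM and then 13.2, 12.5 and 12.8 CPM, a change of -0.39 ± 0.09. ZNF460 had 6.92, 7.76 and 7.57 CPM and then 6.20, 5.06 and 5.40 CPM, a change of -0.42 ± 0.14. The groups did not overlap in any of the 3, and of them only ZNF175 was still called with the GC trend removed, at -0.32. ZNF175 was not called without untreated replicate 3, with a range of -0.43 to -0.33 over the fits that left out a library, and ZNF460 was called in 1 of those 6 fits, the one without IR replicate 1, with -0.51 to -0.36. ZNF649 had 11.9, 10.9 and 12.2 CPM and then 10.3, 8.38 and 8.26 CPM, a change of -0.38 ± 0.12, and shares exons with ZNF577. The log2 fold changes of ZNF808, ZNF181, ZNF551, ZNF780A and ZNF562 were between -0.36 and -0.25. Of these and ZNF649, only ZNF551 was called with the GC trend removed, and none was called in all 6 fits that left out a library. ZNF418 gave the lowest value of all members, -1.92 ± 0.47, on 0.109 to 1.22 CPM, and was not called without untreated replicate 3. ZNF285 gave -0.67 ± 0.22 on 1.74 to 3.84 CPM, but was called in 3 of 15 alternative fits, in none of the 6 that left out a library, and not with the GC trend removed (-0.57).

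All 23 called members were free of overlap between the groups. Over the 213 members, 19 were higher in every irradiated library than in any untreated one (8.92%, against 23.8% of all genes tested) and 53 were lower in every one (24.9%, against 23.3%). The share without overlap on the lower side was therefore near that of all genes, and the share on the higher side was below it.

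ZNF417 and ZNF587 are a pair with near-identical fingers on opposite strands of the last cluster. In human cells they are known to repress the endogenous retrovirus HERV-K. Their fingers differ by 0 to 3 of 84 bases, and 4 of the 12 fingers of ZNF417 have no difference from the matching finger of ZNF587. One finger is shown as an example of how few bases separate the fingers of the pair, with the differing base in capitals.
ZNF417: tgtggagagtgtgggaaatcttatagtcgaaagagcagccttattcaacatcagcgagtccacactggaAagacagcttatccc
ZNF587: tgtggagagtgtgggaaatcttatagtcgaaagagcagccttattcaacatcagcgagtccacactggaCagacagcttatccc
These lie at chr19:57909387-57909470 (minus strand) and chr19:57859220-57859303 (plus strand) of GRCh38. ZNF417 had 18.7, 20.7 and 24.1 CPM in untreated cells and 17.3, 14 and 16.3 CPM after IR, with a log2 fold change of -0.41 ± 0.12 (SE) and an adjusted p-value of 0.0233 by edgeR's quasi-likelihood test. ZNF587 had 52.2, 51.8 and 49.5 CPM and then 44.3, 45.3 and 49.6 CPM, a difference of -0.14 ± 0.07 that was not called, and its groups overlapped. Since 40.2% of the words of ZNF417 also occur in ZNF587, the split between them is uncertain, and ZNF417 was not called without untreated replicate 2, untreated replicate 3 or IR replicate 2 (-0.49 to -0.31 over the 6 fits that left out a library). Their sum was 70.9, 72.6 and 73.7 CPM in untreated cells and 61.6, 59.3 and 65.9 CPM after IR, without overlap. The sum is uncertain too, since 32.3% of the words of ZNF587 also occur in ZNF814. Of the words of ZNF417, 21.4% also occur in genes that are not members. An exact two-sided permutation test of the sum gave p = 0.1, the smallest value that 3 libraries against 3 can give.

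Of 20 members with a described role, 19 were tested, none rose and 2 fell (ZNF417 and ZNF649), and their median difference was -0.11 on the log2 scale. The called share was 10.5%, close to the 10.8% of all tested members and below the 30.1% of all genes tested. Genes of transposon and heterochromatin silencing are given first. ZNF91, a repressor of SVA elements, had 7.41, 8.38 and 7.77 CPM in untreated cells and 7.99, 7.02 and 6.11 CPM after IR, with overlap, and a log2 difference of -0.17 ± 0.14 (SE). ZNF274, which recruits SETDB1 to the 3′ ends of zinc finger genes, had 27.7, 26.0 and 28.1 CPM and then 32.0, 28.3 and 30 CPM, a difference of 0.14 ± 0.08 that was not called although the groups did not overlap. Members known from the damage response were not called either. ZNF350 (ZBRK1), a partner of BRCA1 that represses GADD45A, had 6.70, 6.42 and 8.26 CPM and then 7.65, 8.0 and 6.53 CPM, a difference of 0.04 ± 0.15. ZNF420 (Apak), a repressor of p53 activity that ATM inactivates, had 8.51, 7.58 and 7.62 CPM and then 7.55, 5.61 and 6.75 CPM, a difference of -0.25 ± 0.14. ZNF432, which binds poly(ADP-ribose) in DNA repair, stood at -0.06 ± 0.11, and ZNF473, a component of the machinery that processes histone mRNA, at -0.12 ± 0.08. The libraries of ZNF350 and ZNF432 overlapped between groups, and those of ZNF420 and ZNF473 did not.

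Other members with known functions that were not called showed small differences, but for ZNF382. Their log2 fold changes were those of ZNF304, a repressor that acts on the INK4-ARF locus (-0.21 ± 0.09, SE), ZNF224 (0.01 ± 0.11), the imprinted gene ZNF331 (-0.11 ± 0.08), ZNF444 (0.21 ± 0.09), ZNF568, which represses placental Igf2 in mice (0.02 ± 0.19), ZNF671 (0.15 ± 0.12), ZNF574 (0.21 ± 0.11) and ZNF180 (-0.11 ± 0.14). ZNF382, a gene silenced by promoter methylation in several tumours, stood at 0.342 to 0.926 CPM. Its difference of 0.69 ± 0.37 was not called, although its groups did not overlap. Of the 5 most abundant members, ZNF358 rose, as given above, and the others were not called, with -0.20 ± 0.08 for ZNF146, 0.20 ± 0.09 for ZNF226, -0.05 ± 0.11 for ZNF544 and -0.14 ± 0.11 for ZNF302.

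Along the chromosome, the members fall into 16 groups of neighbours when a gap of more than 1 Mb separates groups. The last group, from ZNF628 to ZNF446, was the largest, with 57 tested members, of which 4 rose and 5 fell, shares below the 15.5% and 14.5% of all genes, and 26 stood above 0 and 31 below. In the group from ZNF175 to ZNF331, none of 36 tested members rose, 4 fell and 30 stood below 0, with a median of -0.15 and a median GC content of 43.1%. The share of these 36 that fell was below the 14.5% of all genes and the 20.7% of genes without a ZNF symbol between 42% and 46% GC. In the group from ZNF565 to ZNF573, none of 25 tested members was called, and 19 stood below 0. The group nearest the tip of the short arm, ZNF554, ZNF555, ZNF556, ZNF57 and ZNF77, had all 5 members above 0 and a median of 0.33, and none was called. Of these, ZNF57 had 6.15, 5.98 and 5.72 CPM in untreated cells and 7.45, 8.11 and 6.93 CPM after IR, a log2 difference of 0.33 ± 0.13 (SE). ZNF554 had 3.07, 2.90 and 1.47 CPM and then 4.02, 3.59 and 3.74 CPM, a difference of 0.61 ± 0.26. Both were free of overlap. Members that rose and members that fell were found together only in the last group and in the group from ZNF557 to ZNF846. The latter had 1 of each among 13 tested members.

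**Figure D2:**
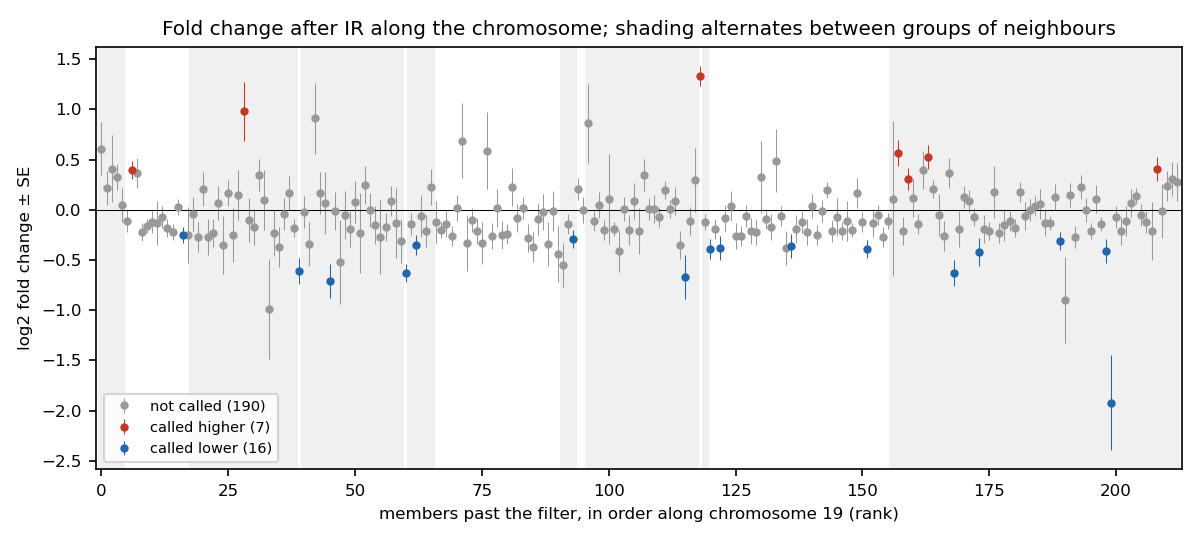
log2 fold change after IR with its SE for the 213 members tested, in their order along chromosome 19 (horizontal axis, rank), called higher (red), lower (blue) or not called (grey). Shading alternates between the groups of neighbours, and the called members are spread over the chromosome, with ZNF114 highest at 1.33 and ZNF418 lowest at -1.92.

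A few members varied widely between libraries of the same group. ZNF404 had 16.2, 14.9 and 4.35 CPM in untreated cells and 18.6, 5.5 and 13.8 CPM after IR, and its canonical transcript was put at about 0 in untreated replicate 3 and IR replicate 2. ZNF628, the member that opens the last group, had 2.25, 2.59 and 2.39 CPM and then 0, 1.85 and 5.38 CPM. Neither was called, with SEs of 0.45 and 0.77 on the log2 scale. Over all members, a median of 89.7% of the 31-base words occur in no other gene, and 11 members have less than 50% of their words to themselves, of which 7 were tested.

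The windows upstream of the members held some motifs more often than those of all genes, as counts with no test. Among the 250 bases before the transcription start, from RefSeq, 216 members had a window, as did 15842 protein-coding genes in all. The CCAAT box (CCAAT, both strands) was found in 50.9% of the member windows and 34.5% of all, and the GC box (GGGCGG, both strands) in 64.8% and 56.0%. The p53 motif, as a single unit of the response element, was found in 5.56% of member windows and 5.10% of all. None of the 6 windows of members that rose and none of the 13 of members that fell held it. At a share of 5.10% such small sets would often hold none, so that nothing follows for the called members. A match is a description of letters and does not show a site in use. The windows of ZNF66, which fell, and ZNF787, which rose, are shown as examples of unlike composition, with both motifs in capitals.
ZNF66: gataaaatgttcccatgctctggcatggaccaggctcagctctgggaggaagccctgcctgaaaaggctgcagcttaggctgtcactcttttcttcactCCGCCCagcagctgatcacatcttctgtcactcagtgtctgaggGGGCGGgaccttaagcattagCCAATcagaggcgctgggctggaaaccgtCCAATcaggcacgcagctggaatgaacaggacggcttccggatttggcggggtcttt
ZNF787: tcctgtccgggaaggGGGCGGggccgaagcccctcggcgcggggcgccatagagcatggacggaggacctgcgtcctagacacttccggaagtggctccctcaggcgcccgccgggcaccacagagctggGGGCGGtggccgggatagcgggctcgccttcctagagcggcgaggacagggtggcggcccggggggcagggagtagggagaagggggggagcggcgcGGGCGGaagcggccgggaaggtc
They lie at chr19:20776054-20776303 (plus strand) and chr19:56121296-56121545 (minus strand) of GRCh38.p14. The window of ZNF66 held 2 CCAAT boxes, 2 GC boxes and 8 CG dinucleotides at 56.0% GC. That of ZNF787 held 0 CCAAT boxes, 3 GC boxes and 27 CG dinucleotides at 74.8% GC. The windows of ZNF507, ZNF175 and ZNF333, which also fell, had 69.6%, 52.4% and 61.6% GC with 23, 20 and 12 CG dinucleotides. The window of ZNF579, which rose, had 70.4% GC and 10 CG dinucleotides. The printed pair thus does not stand for all members that rose or fell. The median over the members was 16 CG dinucleotides and 59.6% GC, against 17 and 62.4% over all protein-coding genes.

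A list of 32 genes covered the corepressor that the KRAB domain binds and heterochromatin and silencing more widely. Of these genes, 25 stood below 0, and TRIM28 itself was not called. TRIM28 had 232, 222 and 216 CPM in untreated cells and 205, 210 and 285 CPM after IR, with overlap, and a log2 fold change of 0.07 ± 0.11 (SE) with an adjusted p-value of 0.687 by edgeR's quasi-likelihood test. SETDB1 had 42.7, 44.8 and 43.5 CPM and then 40.5, 39.6 and 38.9 CPM, a difference of -0.14 ± 0.07 with an adjusted p-value of 0.134 by edgeR's quasi-likelihood test. Of the 32 genes, all tested, none rose and 13 fell (40.6%, against 14.5% of all genes), with a median of -0.18. Their median SE was 0.072 against 0.097 over all genes, and their median absolute log2 fold change was 0.19 against 0.21. The list was not compared with genes of like GC content and expression, and the difference in shares was not tested. CBX5, which encodes heterochromatin protein 1 alpha, had 319, 321 and 306 CPM and then 231, 215 and 220 CPM, a change of -0.51 ± 0.06. The chromatin remodellers ATRX and CHD4 changed by -0.41 ± 0.08 and -0.33 ± 0.06, and the maintenance methyltransferase DNMT1 by -0.27 ± 0.07. The other genes that fell were TASOR and MPHOSPH8 of the HUSH silencing complex, the histone methyltransferases SUV39H1, SUV39H2 and NSD1, CBX1, UHRF1, SUMO2 and SMARCAD1. With an offset for effective length, 3 of the 32 genes fell. For this fit and those below that leave out a library, the share of all genes called is not given. The number that fell was 6 without untreated replicate 1 or untreated replicate 2, 8 without untreated replicate 3, and 7 without IR replicate 2, where 1 gene rose.

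Other C2H2 genes of chromosome 19 that go by another name were few, and 10 of 17 could be tested, of which 1 rose and 2 fell. The 3 calls are 30% of the 10, against 30.1% of all genes tested. PEG3, an imprinted gene, had 82.3, 87.0 and 81.5 CPM in untreated cells and 62.2, 51.9 and 47.1 CPM after IR, a log2 fold change of -0.64 ± 0.10 (SE). ZFP14 fell by 0.73 on the log2 scale, and ZSCAN18, which carries a SCAN domain, rose by 0.52 ± 0.10. With the GC trend removed, PEG3 (-0.51) and ZFP14 (-0.58) were still called and ZSCAN18 (0.21) was not. MZF1 (-0.61) was called only in that fit. In PEG3 all irradiated libraries were below all untreated ones.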

How the data were processed

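The 6 RNA-seq libraries of U-2 OS cells were grouped and numbered by the sample titles and treatment labels. Per the labels, poly(A) RNA was prepared with an mRNA kit, whereas the methods of the study name a total RNA kit. The authors trimmed reads with fastp and assigned them with kallisto to GENCODE release 37 of GRCh38 (tool versions and strand setting are not given in the sources used here). The deposited files give, per transcript, an estimated count that the authors did not normalize. They also give a TPM value, which the authors scaled for effective length and library total. The file name of IR replicate 3 alone holds a suffix that may mean a repeat, which no source explains.

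By their identifiers, 158711 of 161171 transcripts were found in GENCODE release 44, with 98.2% to 98.5% of the counts of a library. The rounded gene sums of the estimated counts were passed through filterByExpr, TMM scaling and the quasi-likelihood functions glmQLFit and glmQLFTest of edgeR 4.0.16 (R 4.3.3, limma 3.58.1), fitted to all 6 libraries with group as the only term. P-values were adjusted by Benjamini–Hochberg over 14323 genes, with a threshold of 0.05. A gene is said to rise, fall or be called where it passed this threshold. The SE was derived from the log2 fold change and the F statistic, and CPM uses TMM-scaled totals. TPM served for levels between genes and as weights for GC content, a spline of 5 degrees of freedom being fitted to it in each library for the GC alternative. Like genes were compared by medians. The scripts were tested on simulated counts.

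The members and the gene lists were chosen with earlier results of these data known. Members were named by rule: the 8 largest rises and 8 largest falls called (with 100 counts or more on average and groups that do not overlap), the 4 of lowest p-value in each direction, the 5 of highest TPM, and members with a described role, and of the other lists TRIM28, SETDB1 and called genes. The remaining called members, ZNF404, ZNF628, ZNF560, the untested members and those of the first group of neighbours were named after their values were seen. Zinc fingers and the KRAB domain were found by pattern in the reading frame of the canonical transcript, and 245 of 246 frames had the annotated length. Alternatives were filters, DESeq2 1.42.0 (size factors, Wald test), a replicate block, GC and length terms, members with at least 50% of their words to themselves, wider windows for like genes, and leaving out each library. Replicates of a group differed by more than sampling noise, with a chi-square per gene of 3.445 to 9.157, or 29.082 and 32.232 for the pairs with IR replicate 3, and none was counted as a copy. The other experiments of the study were not analysed here.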

Additional observations from a re-analysis of the deposited data

How the results depend on the processing

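The number of members that fell depended on the processing. It was 16 in the fit reported, 10 by the DESeq2 Wald test, 9 with a replicate block, 10 with the GC trend removed, 9 with the GC trend removed and a replicate block, 9 with GC and length trends removed and 9 with an effective length offset. The number that rose was 7, and became 4 with the GC trend removed and a replicate block and 3 with the effective length offset. The median log2 fold change was -0.112, and became -0.044 with the GC trend removed, -0.039 with the block added and -0.018 with GC and length trends removed. When each library was left out in turn, between 5 and 6 members rose and between 7 and 16 fell. The median was then between -0.133 and -0.057. The share of all genes called is given only for the fit reported and with the GC trend removed. For the list of corepressor and heterochromatin genes, 13 genes fell in the fit reported, 7 with a replicate block and 3 with the effective length offset. Leaving out a library gave 0 to 1 rises and 6 to 14 falls in this list. The filters on low counts, DESeq2 size factors and the limit on shared words kept these counts within 1.5 times, and the counts of members above and below like genes were 82 and 131 with wider windows and 83 and 130 with the GC trend removed.

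Called members that turned direction were ZNF787 (-0.054 with the GC trend removed, -0.049 with the block added, -0.042 with GC and length trends removed), ZNF358 (-0.039, -0.031 and -0.089 in the same order), ZNF865 (-0.279, -0.263 and -0.169) and ZNF525 (0.074 with the effective length offset). The cause was not tested. Called in all 15 alternatives were ZNF114, ZNF66, ZNF507 and ZNF471, and 9 of the 23 called members were called in all 6 fits that left out a library. Of the 23, 10 were also called in the same direction with the GC trend removed, and 7 with the effective length offset.

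The groups share replicate numbers, but libraries of the same number did not deviate together (correlations of -0.017, 0.007 and -0.052), so that the block stands only as an alternative. The low counts of most members limit precision, and counting intervals leave out other error. The depth of IR replicate 3 cannot be told apart from its place in the irradiated group.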

Other observations

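With the GC trend removed, 5 members were called that were not called in the fit reported, all by edgeR's quasi-likelihood test. ZNF57, ZNF226 and ZNF320 were higher after IR, at log2 fold changes of 0.40, 0.29 and 0.29 in that fit against 0.33, 0.20 and 0.20 in the fit reported. ZNF524 and ZNF580, GC-rich genes without a KRAB pattern, were lower, at -0.67 and -0.51 against -0.21 and -0.14. ZNF320 had 34.9, 36.9 and 41.9 CPM in untreated replicates 1 to 3 and 44.7, 41.9 and 43.7 CPM after IR, so that 1 library of each group was equal at this rounding. ZNF524 had 6.92, 8.38 and 7.57 CPM and then 5.66, 6.97 and 7.06 CPM, and its groups overlapped.

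Exons of 60 members overlap those of another gene on the same strand and exons of 29 overlap one on the opposite strand. Among the 23 called members these numbers were 8 and 2. The share of words a member has to itself showed no more than a weak relation to its log2 fold change across the 213 members tested (Pearson's r of -0.06 and Spearman's rho of 0.01, over genes of the same 6 libraries). The number of fingers gave r of -0.24 and rho of -0.22, and -0.09 for both with the GC trend removed.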
